A study of Mus musculus with 8 samples.

Results

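The 10 genes described here form the core of the circadian clock and part of its output: the activators Clock and Arntl, the repressors Per1, Per2, Cry1 and Cry2, the nuclear receptor Nr1d1, the output factors Dbp and Tef, and the repressor Bhlhe40. They were chosen by name, with the ratios of null over wild type from these same arrays already known, so those ratios are given as a description and support no claim. Probes were assigned by RefSeq accession, which gave 19 of the 41174 non-control probes of the array; 11 of the 19 passed the filter on dim probes, with at least 1 for each of the 10 genes, out of 12000 genes measured. RNA of embryonic kidneys at day 15.5, from p53 null and p53 wild-type C57BL/6 mice, was hybridised together on 8 arrays of 2 colours. These arrays formed 3 biological replicates, 4 arrays for replicate 1 and 2 each for replicates 2 and 3, with the null RNA in Cy5 (red) on 4 arrays and in Cy3 (green) on 4. The sources do not state the allele that removes p53, the number of embryos behind each RNA or the hour of the day at which kidneys were collected.

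The circadian clock is a feedback loop of transcription that runs in nearly every cell. CLOCK and ARNTL (also called BMAL1) bind E-boxes as a pair and switch on the Per and Cry genes, whose proteins return to the nucleus and silence the pair. In a second loop Nr1d1 encodes REV-ERB alpha, a receptor that represses Arntl, and Dbp and Tef encode PAR bZIP factors that carry the rhythm to other genes. Adult kidney is strongly rhythmic, with clock control of sodium and water handling, whereas rhythms in embryonic tissue are still being established.

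The promoter sequences show where such inputs could meet these genes. In RefSeq's GRCm38.p6 annotation, promoter windows from 250 bases before to 50 bases after a start site were found for 8 of the 10 genes, with 13 windows in all; Per2 and Bhlhe40 had no entry. The E-box CACGTG, searched on both strands, was in 4 of these 13 windows, belonging to Per1, Cry1 and Tef, against 7.15% of all 32851 windows. The ROR/REV-ERB core TNGGTCA was also in 4 of 13 windows, of Arntl, Cry2 and Tef, against 11.0% of all windows. The Arntl windows overlap and hold the same upstream cores. Counted by gene, the E-box was in 3 of 8 (8.09% of all genes) and the ROR/REV-ERB core in 3 of 8 (12.4%). The D-box TTANGTAA (in 2.32% of all windows) and the cAMP response element TGACGTCA (1.79%) were in 0 of the 13. The core ACGTG of hypoxia response elements, which lies within every E-box, was in 7 of 13 windows against 19.6% of all windows. Counted by gene it was in 6 of 8 (21.8% of all genes). The 4 windows with an E-box are necessarily among these 7. A match is only a run of letters, and no binding was measured here. A further Arntl core, TAGGTCA, lay at base 31 after its second start site, outside the stretches shown. The cores upstream of Arntl read TTGGTCA and TCGGTCA, and whether Nr1d1 or a ROR factor acts through them was not tested. The E-boxes upstream of Per1, Cry1 and Tef and the cores upstream of Arntl follow with their flanks, 5′ to 3′ on the gene's strand. Capitals mark the letters searched.
Per1, chr11:69098753-69098818, plus strand: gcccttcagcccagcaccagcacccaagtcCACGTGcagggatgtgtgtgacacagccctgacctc
Cry1, chr10:85185079-85185144, minus strand: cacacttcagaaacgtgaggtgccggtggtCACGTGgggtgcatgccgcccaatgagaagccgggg
Tef, upstream start, chr15:81802516-81802581, plus strand: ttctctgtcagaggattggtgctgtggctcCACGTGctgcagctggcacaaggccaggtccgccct
Tef, downstream start, chr15:81811246-81811311, plus strand: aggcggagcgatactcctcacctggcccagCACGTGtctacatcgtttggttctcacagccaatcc
Arntl, chr7:113207235-113207320, plus strand: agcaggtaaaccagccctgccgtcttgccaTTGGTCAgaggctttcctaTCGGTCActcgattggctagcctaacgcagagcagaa

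The file headers place replicate 1 on slide 1 and replicates 2 and 3 on slide 2. The names of the deposited files number the wild-type RNA of replicates 2 and 3 alike and number their null RNAs apart, although the labels call the replicates biological. The intensities were set against this: between replicates 2 and 3 the wild-type channel differed by a median absolute deviation of 0.109 and 0.111 (log2, 17783 probes, null in Cy5 and in Cy3), no more than between the duplicate arrays of replicate 1 (0.114 and 0.111). The null channel differed by 0.161 and 0.176 between replicates 2 and 3, against 0.13 and 0.084 between the duplicate arrays of replicate 1. The wild-type RNAs of these replicates thus differed no more than repeat hybridisations, so the ratios of replicates 2 and 3 may share 1 wild-type RNA. Over the 20865 tested probes the ratios of replicate 1 had a correlation of 0.06 with replicate 2 and of -0.15 with replicate 3. Replicates 2 and 3 had 0.93 with each other. Values are therefore given by replicate or by slide beside the mean. Between 46.9% and 62.4% of probes were well above background in a channel, fewer on slide 2. Trp53, the targeted gene, had a log2 ratio of -1.08, -0.47 and -0.45 in replicates 1, 2 and 3; the sources do not state which part of the gene was deleted. Kidney markers were present: 6 of 6 nephron progenitor, 5 of 5 stromal and 5 of 6 ureteric bud markers passed the background limit in the wild-type channel of all 8 arrays.

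Ratios are log2 of null over wild type, so that -1 is 0.5 of the wild-type level, and means are over replicates with their SD (n = 3). With limma over all probes 0 of the 10 clock genes passed an adjusted p of 0.05, as did 0% of all genes. At an unadjusted p under 0.05, 4 clock genes were lower in null (8.93% of all genes) and 2 were higher (9.23%). In each of the 3 replicates 6 clock genes were lower (19.7% of all genes) and 2, Clock and Arntl, were above 0 (20.4%), Arntl by only 0.0037 in replicate 1. The contrast is the one known when the genes were chosen, so nothing is read from these counts. In RNA of a whole organ, fewer cells of a type and less RNA per cell cannot be told apart. The median of the 10 genes was -0.16, against 0.0047 over all genes; it was -0.35 with an offset of 0, -0.55 by the scanner program's ratio and -0.076 with median centring.

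**Figure D1:**
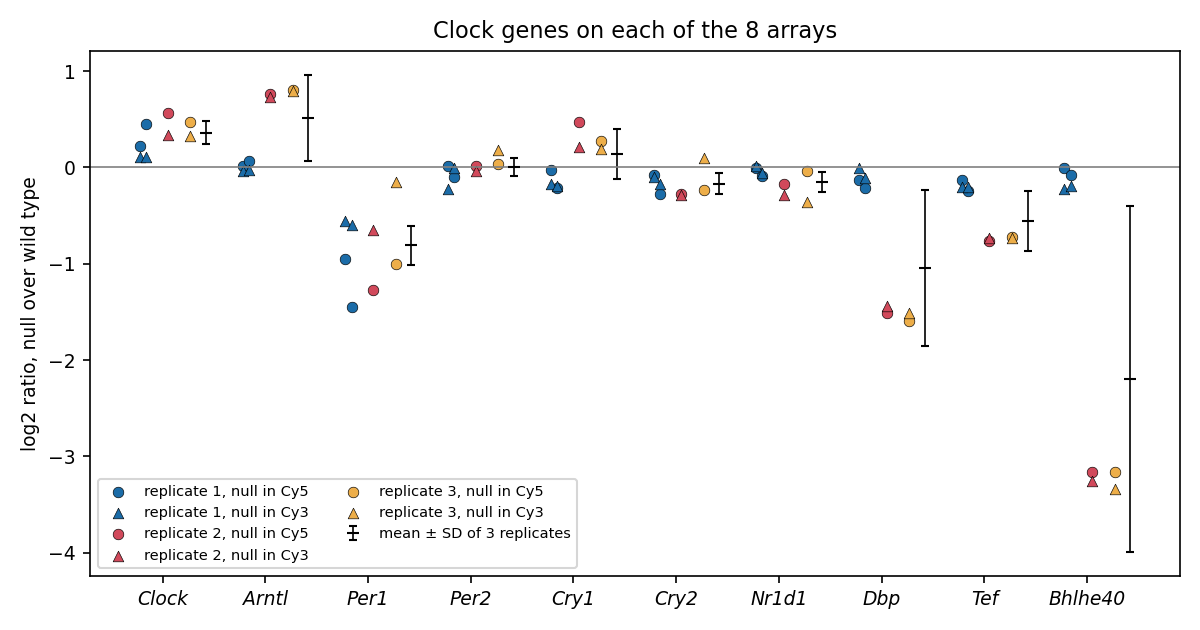
Log2 ratio of null over wild type (vertical axis) of each clock gene on each of the 8 arrays, coloured by replicate, with circles for null RNA in Cy5 and triangles for null RNA in Cy3; bars are the mean ± SD of 3 replicates. Per1 lay below 0 on all 8 arrays, while Bhlhe40, Dbp, Tef and Arntl were near 0 in replicate 1 and far from it in replicates 2 and 3.

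Both genes of the activating pair had higher values in null, Clock in each replicate and Arntl in replicates 2 and 3, with a value next to 0 in replicate 1. Clock, whose product is the larger partner and a histone acetyltransferase, had 0.22 and 0.45 on the arrays of replicate 1 with null in Cy5 and 0.11 and 0.11 on those with null in Cy3. It had 0.57 and 0.34 in replicate 2 and 0.47 and 0.33 in replicate 3. The ratio was above 0 on all 8 arrays and the ranges of the slides overlapped. The mean was 0.36 ± 0.12 (limma, adjusted p = 0.279), a level 1.28 times that of wild type; the mean was 0.80 with an offset of 0 and 0.97 by the scanner program's ratio. Other probes of Clock were dim, well above background on 4 arrays and on 0, and had means of 0.059 and -0.048.

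Arntl, the partner of Clock, lay between -0.038 and 0.065 on the 4 arrays of replicate 1. On slide 2 it had 0.77 and 0.73 in replicate 2 and 0.81 and 0.79 in replicate 3. The arrays of the slides did not overlap, with no difference in replicate 1 and 1.71 times the wild-type level on slide 2. The mean over replicates was 0.52 ± 0.45 (adjusted p = 0.29), which describes neither slide. Of the 10 genes, 5 had array ratios that did not overlap between slides (Arntl, Cry1, Dbp, Tef and Bhlhe40), as had 48.8% of all genes.

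Of the Period genes, which encode the repressors that answer fastest to outside signals, Per1 was lower in null in each replicate and Per2 was not. Per1 had -0.95 and -1.45 on the arrays of replicate 1 with null in Cy5, and -0.56 and -0.60 on those with null in Cy3. Replicate 2 gave -1.28 and -0.65 and replicate 3 -1.002 and -0.15, in the same order of dyes. Every array was below 0, and within each dye-swapped pair the array with null in Cy5 was the lower. The replicate means were -0.89, -0.96 and -0.58, and the overall mean was -0.81 ± 0.205, or 0.571 of the wild-type level (adjusted p = 0.279). Unlike the other genes with large ratios, Per1 had about the same value on both slides (-0.89 and -0.77).

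The dye mattered more for Per1 than for any other clock gene. Its mean was -1.16 with null in Cy5 and -0.46 with null in Cy3, and only 0.605% of genes had a larger dye difference over the 8 arrays. Averaging both orientations removes a constant dye effect, and the sign was the same in each orientation, but the size rests on that averaging. Per2 had replicate means of -0.077, -0.0078 and 0.11 and a mean of 0.0067 ± 0.092. Its wild-type signal was well above background on 5 of the 8 arrays and its null signal on all 8, so Per2 lay close to the limit of measurement. A second Per2 probe cleared background on 2 arrays for wild type and on 0 for null.

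The Cryptochromes, the stronger repressors of the activating pair, had small ratios. Cry1 was lower on all 4 arrays of replicate 1, from -0.21 to -0.025, and higher on all 4 arrays of slide 2, from 0.20 to 0.48. Its sign thus differed between slides, and its mean was 0.14 ± 0.26 (adjusted p = 0.549). Cry2 had -0.16, -0.28 and -0.067 in replicates 1, 2 and 3, a mean of -0.17 ± 0.11 (adjusted p = 0.345), and was below 0 on 7 of 8 arrays; the mean was -0.31 by the scanner program's ratio and -0.036 with median centring. Nr1d1, the repressor of Arntl, had -0.036, -0.23 and -0.20 and a mean of -0.16 ± 0.10 (adjusted p = 0.367), below 0 on 7 of 8 arrays as well. Its remaining probes were well above background on 3 arrays and on 0. Nr1d1 was dim, and its mean depended on the processing: it was -0.45 with an offset of 0 and -0.80 by the scanner program's own ratio, which also differs in background correction and normalization.

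The output factors were lower in null. Dbp, a transcription factor of the PAR bZIP family and among the most rhythmic transcripts known in adult organs, lay between -0.21 and -0.0016 on the arrays of replicate 1. It had -1.51 and -1.44 in replicate 2 and -1.60 and -1.51 in replicate 3. All 8 arrays were below 0, but the level was 0.924 of wild type on slide 1 and 0.350 on slide 2. The mean was -1.05 ± 0.81 (adjusted p = 0.28). Tef, of the same family, had the same order with smaller values: -0.24 to -0.13 on slide 1 and -0.77 to -0.73 on slide 2. Its mean was -0.56 ± 0.31 (adjusted p = 0.279), or -0.94 by the scanner program's ratio, and a second, dimmer Tef probe had -0.26 ± 0.20, with -0.033 in replicate 1, -0.34 in replicate 2 and -0.40 in replicate 3.

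Bhlhe40 (DEC1) encodes a repressor that competes for E-boxes and is also a direct target of the hypoxia factor HIF. It had the most extreme ratio of the 10 genes: -0.0014 and -0.081 in replicate 1 with null in Cy5, and -0.23 and -0.20 with null in Cy3. Replicate 2 had -3.17 and -3.26 and replicate 3 -3.17 and -3.34. On slide 2 the level in null was 9.40-fold lower than in wild type, the third lowest of 12000 genes, whereas on slide 1 Bhlhe40 ranked 3792 from the lowest. The mean of -2.20 ± 1.79 (adjusted p = 0.284) again lies between slides that do not meet. Dbp and Bhlhe40 were the 2 clock genes more than 2-fold lower on slide 2, where 1.52% of all genes were.

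When the slides were taken apart, 9 of the 10 genes passed within slide 2 (limma, 2 replicates), all but Per2, where 60% of all genes passed. With slide as a fixed block 7 passed (Per1, Cry2, Arntl, Clock, Dbp, Tef and Bhlhe40), as did 43.2% of all genes. Both counts take their error from replicates 2 and 3, whose wild-type RNAs differed no more than repeat hybridisations. With 1 value per slide 0 of all probes passed, with 0 of the 10 genes.

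Since each channel holds the RNA of 1 genotype, the level of each gene can be followed by genotype across slides. After loess the average intensities of the arrays were made alike (limma's Aquantile), so a level, as log2 intensity, is relative to the rest of its array and is compared only within a gene. Bhlhe40 in wild type had 7.79 in replicate 1, 11.69 in replicate 2 and 11.63 in replicate 3. In null it had 7.67, 8.48 and 8.38. The wild-type level was thus 3.87 higher on slide 2 than on slide 1 and the null level 0.76 higher. Dbp had 11.38, 13.18 and 13.32 in wild type and 11.27, 11.70 and 11.77 in null, so that here too the larger step between slides was in wild type (1.87 against 0.47). Without the scaling between arrays the wild-type steps were 2.92 for Bhlhe40 and 1.37 for Dbp, while the null steps became -0.19 and -0.031.

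Relative to the rest of each array, Arntl and Tef had their larger step between slides in null; without the scaling between arrays the larger step of Arntl was in wild type (-1.12 against -0.35), and Tef had -1.34 in wild type and -1.88 in null. Arntl had 7.80, 7.73 and 7.83 in wild type and 7.80, 8.48 and 8.64 in null. Tef had 8.46, 8.23 and 8.20 in wild type and 8.26, 7.48 and 7.47 in null. Per1 was higher on slide 2 by similar amounts in both genotypes, 0.56 in wild type and 0.68 in null, and Clock was lower by 1.36 and 1.16. Without the scaling, levels of all genes were lower on slide 2 (median -0.71 in wild type and -0.58 in null), and the steps of Per1 turned negative (-0.35 and -0.24), so only the difference between genotypes is independent of that choice. Slide and replicate cannot be told apart in these steps.

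**Figure D2:**
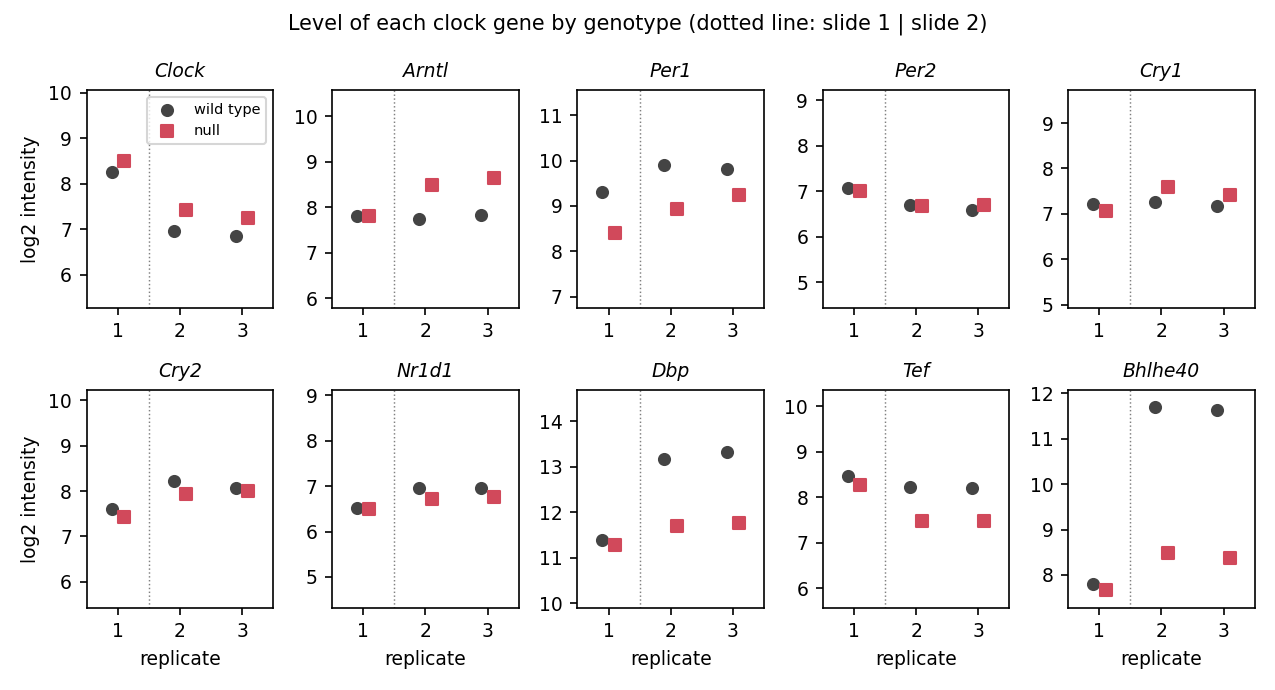
Level of each clock gene (log2 intensity, vertical axis, each panel spanning the same number of units) in wild type (circles) and null (squares) for replicates 1, 2 and 3; the dotted line separates slide 1 from slide 2. For Bhlhe40 the wild-type level was 7.79 in replicate 1 and 11.69 and 11.63 in replicates 2 and 3, whereas for Arntl it was the null level that stood higher on slide 2 on this scale (a step of -0.35 without the scaling between arrays).

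The hypoxia response genes had the same order of replicates as Bhlhe40. All 18 of 18 listed genes were measured and all 18 were lower in null on slide 2, as were 5545 of all 12000 genes; their medians were -0.035, -2.07 and -2.24 in replicates 1, 2 and 3. Over the 3 replicates 0 of them passed the threshold (0% of all genes). At an unadjusted p under 0.05 (limma) 14 were called, all lower, against 8.93% of all genes. Their mean level in wild type was 9.80 in replicate 1 and 11.92 and 11.93 in replicates 2 and 3, against 9.76, 9.88 and 9.82 in null. Vegfa, the angiogenic factor, had -0.28, -1.27 and -1.22 in the 3 replicates. The HIF prolyl hydroxylase genes Egln1 and Egln3 had -0.24, -1.43 and -1.44, and -0.32, -1.31 and -1.29. Ndrg1, a stress-induced gene, had -0.22, -2.95 and -2.62. As for Bhlhe40, the larger step between slides, relative to the rest of each array, was in wild type. In replicate 1 Per1 had -0.89, and 11 of the 18 hypoxia genes were below 0, as were 6465 of all 12000 genes. The part of this list in the ratios of the clock genes was not tested.

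Among other clock transcription factors 7 of 13 were measured; Per3, Npas2, Arntl2, Rorb, Bhlhe41 and Ciart were too dim. Of the 7, 5 were lower and 2 higher in null, against 5898 and 6102 of all 12000 genes. The threshold was passed by 0 (0% of all genes). At an unadjusted p under 0.05 (limma) 3 were called, all lower, against 8.93% of all genes. Their median of -0.22 over the replicate means was not stable: it was -0.0049, -0.21 and -0.028 in replicates 1, 2 and 3, -0.0046 with median centring, -0.017 with the second brightest probe, -0.021 with no filter and -0.026 with null in Cy3 alone. Rora, an activator of Arntl that competes with REV-ERB and is also induced by hypoxia, had 0.028 in replicate 1 and -1.83 and -1.92 in replicates 2 and 3. Nfil3, which opposes Dbp and Tef at D-boxes, had -0.24, -0.71 and -0.55 and was below 0 on all 8 arrays. Timeless, better known for its part in DNA replication forks, had -0.42, -0.21 and -0.028. Hlf, the third PAR bZIP factor, had 0.0082, 0.11 and 0.14 and was not lower in any replicate. Nr1d2, the close relative of Nr1d1, had 0.25, 0.034 and -0.0037.

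Enzymes that set the stability of clock proteins were measured in 16 of 16 cases. Of these, 11 were lower and 5 higher, against 5898 and 6102 of all 12000 genes. Their median was -0.088, but 0.040 with median centring of the arrays. The threshold was passed by 0 (0% of all genes). At an unadjusted p under 0.05 (limma) 2 were lower (8.93% of all genes) and 2 higher (9.23%). Csnk1e, a casein kinase that marks PER proteins for breakdown, had nearly the same value in each replicate: -0.36, -0.35 and -0.34 (mean -0.35 ± 0.012, adjusted p = 0.279). It was below 0 on 7 of 8 arrays, so single arrays lay further apart than these replicate means. The sister kinase Csnk1d had the opposite sign, with 0.15, 0.56 and 0.44. Csnk1a1 had -0.14, -0.21 and -0.28, and the ubiquitin ligase subunit Fbxw11 had 0.30, 0.29 and 0.093.

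Of 14 listed clock output genes 10 were measured, 5 lower and 5 higher (median -0.064, but 0.042 with median centring). Of all 12000 genes 5898 were lower and 6102 higher. The threshold was passed by 0 (0% of all genes). At an unadjusted p under 0.05 (limma) 1 was called, lower in null, against 8.93% of all genes. Nampt, the rhythmic enzyme of NAD salvage, had 0.29 in replicate 1 and -1.77 and -1.89 in replicates 2 and 3. Sgk1, a kinase of sodium transport, had -0.0033, 0.68 and 0.74, and the lipid receptor gene Ppara had -0.21, -0.17 and -0.071. Cdkn1a, a cell cycle inhibitor under clock control and a p53 target, had -0.28, -1.24 and -1.16. Of 12 genes that respond to glucocorticoid or cAMP, signals that induce Per1, 11 were measured, 8 lower and 3 higher (median -0.23). Again 0 passed the threshold. At an unadjusted p under 0.05 (limma) 4 were called, all lower, against 8.93% of all genes. Klf9, a glucocorticoid-induced factor, had -0.54, -0.59 and -0.28, of the same sign as Per1 in each replicate and below 0 on all 8 arrays. Nr4a1 and Fos had -0.13 and -0.020 in replicate 1 and had -1.02 and -0.62 in each of the other replicates (Fos was well above background in null on 4 of 8 arrays), and Ddit4, also listed under hypoxia, had -0.18, -3.15 and -3.14. The receptor targets Fkbp5 and Dusp1, chosen after their values were seen, had -0.29, 0.15 and 0.15, and -0.18, 0.13 and 0.11.

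**Figure D3:**
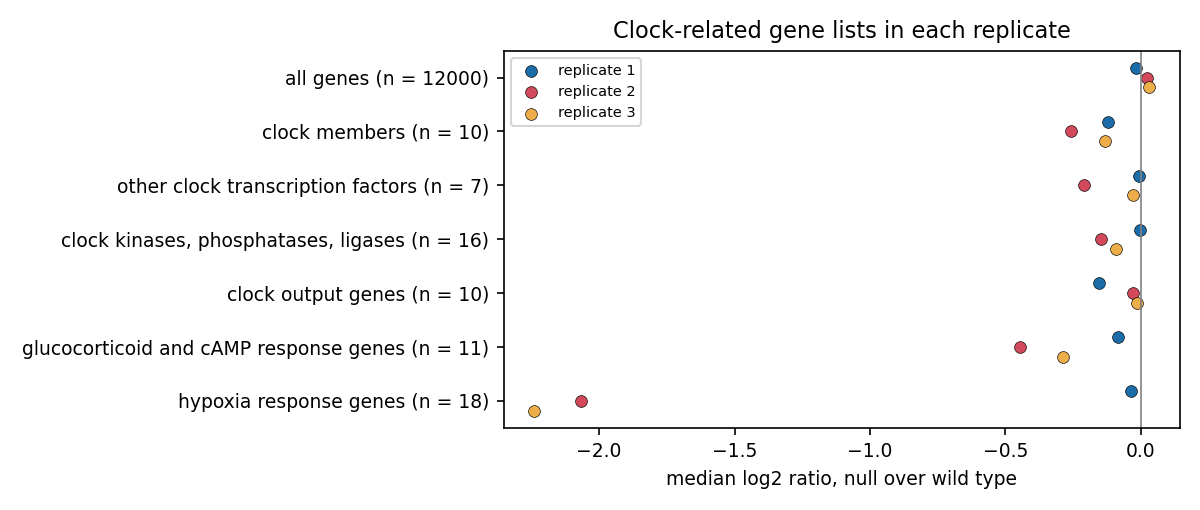
Median log2 ratio of null over wild type (horizontal axis) of each gene list in replicates 1, 2 and 3, with the number of measured genes in brackets. The hypoxia response genes stood at -0.035 in replicate 1 and at -2.07 and -2.24 in replicates 2 and 3, while the clock lists stayed between -0.26 and 0.

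The genes nearest to Per1 over the 8 array ratios, by Euclidean distance among 11741 genes with all 8 values, were Pim3 (distance 0.54), Plod1 (0.64), Gapdh (0.65), Fbn2 (0.67) and Plppr3 (0.70). Pim3, a serine/threonine kinase gene, had -0.78, -0.92 and -0.51 in the 3 replicates. Plod1, a collagen lysyl hydroxylase gene, had -0.93, -0.83 and -0.55. With 8 arrays of 3 replicates such closeness is a description only.

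Markers of cell types were measured as well, and 0 passed the threshold (0% of all genes). Nephron progenitor, ureteric bud, podocyte, proximal tubule, endothelial, adrenal, skeletal muscle, peripheral nerve and gonad lists are not described below. Their medians over the replicate means lay between -0.20 (gonad) and 0.25 (skeletal muscle). By the mean over replicates all 5 macrophage markers were higher in null, as were 6102 of all 12000 genes. Their medians were 0.24, 0.64 and 0.58 in replicates 1, 2 and 3, with mean levels of 8.33 to 8.48 in wild type and 8.63 to 9.09 in null. Csf1r had -0.38 in replicate 1 and was below 0 on 4 of 8 arrays. The 4 measured liver markers of 5 (Alb was too dim) had medians of -0.031, 0.97 and 0.59, with mean levels of 8.13 to 8.34 in wild type and 8.25 to 9.08 in null. Of the 5 stromal markers 4 were lower in null, as were 5898 of all 12000 genes. Their medians were -0.315, -0.52 and -0.53, with mean levels of 13.25 to 13.28 in wild type and 12.94 to 13.08 in null. Col1a1 and Col3a1 were below 0 on all 8 arrays and Pdgfrb on 7. Foxd1 had 0.13, -0.56 and -0.92 in replicates 1, 2 and 3, and Tcf21 had -0.45, 0.55 and 0.68. The 5 erythroid markers went both ways, with -2.60 for Hbb-y, -1.69 for Hbb-bh1 and 1.81 for Alas2 on slide 2, and 0.47, 0.80 and -0.49 in replicate 1. Their mean levels were 10.80 to 11.27 in wild type and 10.83 to 11.05 in null. The part of these cell types in the ratios of the clock genes was not tested.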

How the data were processed

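Per the file headers, Agilent's Feature Extraction, version 10.5.1.1, measured the linear intensity of spots and background in the deposited scanner files (version 6.1 in the submitters' processing notes). It also gave a log10 ratio, red to green, per the file headers. The authors' deposited value table held this log10 ratio turned to null over wild type (correlation 1, largest difference 4.94e-06), and its column medians were 0.0083, -0.0024, 0.0042 and 0.0015 on slide 1 and 0.00083, 0.0064, 0.0064 and 0.011 on slide 2.

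Median spot signals (the files used here hold no mean) were corrected with normexp (offset 50), normalized by loess with 1639 control spots at weight 0, and turned to log2 null over wild type in limma 3.58.1 (R 4.3.3). Outlier spots were dropped, and spots of a probe were averaged. Dye orientations were averaged within a replicate. Kept probes had, in every replicate, 50% or more of arrays well above background for 1 genotype; 20865 of 41174 were tested against 0 (limma, Benjamini-Hochberg, two-sided). The brightest kept probe stands for a gene. Accessions named 25097 probes through the GRCm38.p6 annotation. A permutation of signs cannot go below p = 0.25. Whether replicates are separate litters is not given, and p-values measure the spread between these samples. The test and the SDs treat the 3 replicates as independent, which would not hold if replicates 2 and 3 share 1 wild-type RNA. The array number limits the precision. In simulated data with independent replicates the fit recovered 44 of 50 changes of 2-fold, with 10 false calls among unchanged probes. Replicates 2 and 3 may not be independent here, so the simulation checks the computation and not the power in these data.

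The members and gene lists were chosen with earlier results of these data known. Named genes were all members, up to 4 per list with the smallest p, and the 5 nearest to Per1; Hlf, Nr1d2, Fkbp5 and Dusp1 were added after their values were seen, and 1 listed gene is not reported here.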

Additional observations from a re-analysis of the deposited data

How the results depend on the processing

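Of 21 alternatives, the direction of 8 of the 10 clock genes was kept in every one that gave a value. Cry1 turned on slide 1 alone (-0.15), and Per2, near 0, turned in 7 of its 20. Several alternatives could not turn a sign or repeated another. Choices of filter and probe left each value they gave unchanged, except for Tef, the only member with a second kept probe. The deposited value table repeats the scanner program's ratio, and leaving out replicate 1 repeats slide 2 alone. The number of clock genes lower in null was 6 to 8. Their median was -0.35 with normexp offset 0, -0.55 from the scanner program's ratio and from the deposited value table, and -0.076 with median centring, which moved the median of all genes to 0.15; leaving out a replicate gave -0.19 to -0.11. Offset 0 and the program's ratio gave larger values for dim genes: 0.80 and 0.97 for Clock, and -0.45 and -0.80 for Nr1d1 in that order; Tef had -0.94 by the program. The median of the clock enzymes turned to 0.040 and that of the output genes to 0.042 with median centring. Cry2 was -0.036 there. The number of probes called, 0 as reported, was 1132 with all arrays and the replicate as a random effect, 8521 with slide as a fixed block and 11697 within slide 2 or without replicate 1; leaving out 1 replicate gave 0 to 11697. Per1, Dbp, Tef and Bhlhe40 passed in these 4 settings and in no other. Slide 2 alone and leaving out replicate 1 are the same fit. Null and wild type share each array, so the ratio tested against 0 is already a paired value. Levels by genotype were also computed without scaling, without background correction and with offset 0, chosen after seeing the data.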
